A study of Mus musculus with 23 samples.

Results

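A set of 9 genes of fat breakdown and its hormonal control were followed through adipocyte differentiation. They were taken by symbol from a fixed list, and 9 of 9 were found among the 24029 genes of the deposited table. They are the lipase genes Pnpla2, Lipe and Mgll, the ATGL coactivator gene Abhd5, the ATGL inhibitor gene G0s2, the beta-adrenergic receptor genes Adrb1 and Adrb3, the phosphodiesterase gene Pde3b and the protein kinase A subunit gene Prkar2b. RNA came from C3H10T1/2, a mouse mesenchymal stem cell line of strain C3H that can be turned into fat cells. At day 0 the cells had received 8.3 nM human recombinant BMP7 for 3 days. Cells of day 7 had the same BMP7 pretreatment. They were then given 5 µM DEX (dexamethasone) and 0.5 mM IBMX (a phosphodiesterase inhibitor) up to day 2, with 0.12 µg/ml insulin, 1 µM of a compound labelled Rosi and 1 nM T3 up to day 7. Each day has 1 library made by a standard poly(A) procedure and 1 made by TELP, the library method under study, with the label N9. Day 7 has 2 further TELP libraries, named N9_ss and T18, names whose meaning is not given. The labels describe no added catecholamine, so these values are RNA levels in culture and not a measure of lipolysis.

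In a fat cell, triglyceride is cut in sequence. ATGL, the product of Pnpla2, removes the first fatty acid, hormone-sensitive lipase (Lipe) acts mainly on the diacylglycerol that remains, and monoglyceride lipase (Mgll) releases the last one. ABHD5 (also CGI-58) activates ATGL and G0S2 inhibits it. Catecholamines act on beta-adrenergic receptors, which raise cyclic AMP through the stimulatory G protein and adenylyl cyclase. Cyclic AMP frees the catalytic subunits of protein kinase A from regulatory subunits such as RII-beta (Prkar2b), and the kinase phosphorylates hormone-sensitive lipase and perilipin 1. PDE3B breaks cyclic AMP down and mediates much of insulin's brake on lipolysis.

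Every group holds 1 library, so no value has a replicate error. Values are RPKM, in which reads are divided by gene length and library total, which allows levels of different genes to be set side by side. Differences are of log2(RPKM + 1), which understates the change of genes with low values. A gene was kept if its mean over the libraries compared was at least 1 RPKM, and was called higher or lower at a difference of at least 1. Estimated depth was 14400000 and 14100000 fragments in the standard libraries of day 0 and day 7 and 22600000 in TELP N9 day 0. The day 7 TELP libraries held 4750000 to 5750000, so that 1 RPKM of a 2 kb transcript rests on 8.55 to 10.3 reads there, against 25.5 to 40.7 in the other libraries. The 10 genes with most RPKM took 79.8% of the total in T18, against 7.56% to 32.8% in the others. N9_ss is not independent of N9, since 83.3% of 3609 low genes had the same value in units of reads within 0.05%. In bulk RNA, fewer cells of a type and less RNA per cell cannot be told apart. Of the 6 adipocyte markers 6 were called higher at day 7 in both library types, against 7.23% of all genes kept. Plin1, Cidec and Adipoq among them were under 1 RPKM in both day 0 libraries. They were kept only through day 7 and could only be called higher. Of the 5 precursor markers 2 were called lower, against 5.81% of all genes kept. Dlk1, one of these, was kept only through day 0 and could only be called lower. Markers of other lineages that passed the filter numbered 1 each for macrophage (Cd68, not called), endothelial, muscle and osteoblast and 2 for chondrocyte. The latter 4 lists were called lower throughout. Col2a1, of the chondrocyte list, was kept only through day 0 and could only be called lower. Of the 5 macrophage markers, Ptprc and Itgam stayed at or below 0.0421 RPKM in the 6 libraries, while Cd68 was at 1.03 (standard) and 0.423 (TELP N9) at day 0 and at 1.82 and 4.70 at day 7. Of the 4 muscle markers, Ckm was listed at 0 throughout and Acta1 stood at 11.9 and 36.5 RPKM at day 0 and 5.20 and 7.39 at day 7 (standard and N9).

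The genes of the lipase machinery and of its beta-adrenergic control were far higher at day 7. Of the 9 genes, 8 were kept by the filter and called higher at day 7 in both library types, where 7.23% of 11474 genes were so called. Adrb3 was kept only through its day 7 values, so its direction was fixed by the filter. The other 7 were at 1.52 RPKM or more in each day 0 library. Over the 8 genes, Adrb3 included, the median difference was 4.69 (standard) and 5.67 (TELP N9), against -0.17 and -0.46 over all genes kept. None was called lower, where 5.81% of all genes were. Taken by library type, 8.22% of all genes were called higher and 6.53% lower in the standard libraries, and 13.9% and 29.9% in TELP N9. As a model across genes, limma was fitted with day and library type as terms to 4 libraries, with Benjamini-Hochberg adjustment over all 11474 genes. The spread it uses combines each gene's disagreement between the library types, with 1 residual degree of freedom, and a prior fitted over all genes. That prior carried 3.386 degrees of freedom, so most of the weight lies with other genes. Limma thus says nothing of cultures, and its ± values are not a gene's own disagreement alone. It passed 6 of 8 genes, Adrb3 among them, as higher at a false discovery rate of 0.05, against 1.41% of all genes, and 0 as lower (0.209% of all genes), with 5 of 8 higher when fitted without a mean-variance trend. The remaining gene, Adrb1, stayed under the filter.

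**Figure D1:**
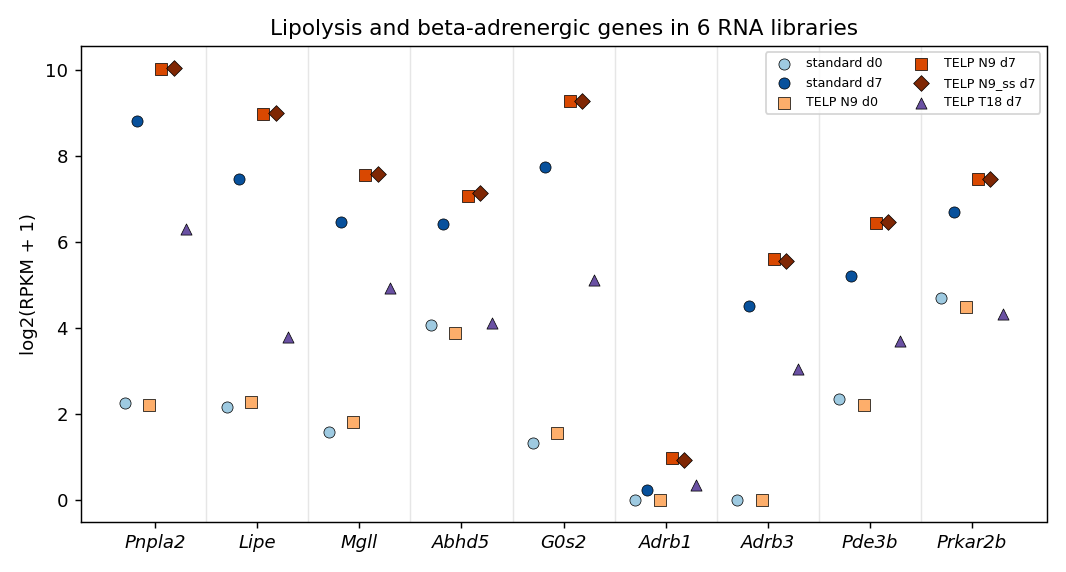
Level of each of the 9 genes as log2(RPKM + 1) in each of the 6 RNA libraries, 1 point per library and no error bars because each group holds 1 library. Circles are standard, squares TELP N9, diamonds N9_ss and triangles T18 libraries; light points are day 0. Standard and TELP N9 points of day 7 lie above those of day 0 for each gene, while Prkar2b in T18 (18.9 RPKM) lies below both its day 0 points.

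Pnpla2 showed the highest level of the 9 genes in the 4 day 7 libraries. At day 0 it stood at 3.77 RPKM (standard) and 3.63 (TELP N9). At day 7 it reached 444 in the standard library, 1032 in N9, 1057 in N9_ss and 78.2 in T18. Thus the day 7 values did not overlap those of day 0 in any library. Its RPKM ratio of day 7 to day 0 was 118 (standard) and 284 (TELP N9). By size of difference Pnpla2 ranked 25 of 11312 genes in the standard and 35 of 11360 in the TELP N9 libraries. In limma the difference was 7.17 ± 0.41 (SE; adjusted p = 0.0156).

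Lipe was at 3.49 and 3.85 RPKM in the standard and TELP N9 libraries of day 0. It was at 176 in standard day 7, 499 in N9, 505 in N9_ss and 12.9 in T18. T18 therefore stood above day 0 but far under the other day 7 libraries. Day 7 to day 0 ratios were 50.4 (standard) and 130 (TELP N9), and limma gave 5.99 ± 0.43 (adjusted p = 0.022). At day 0 Pnpla2 and Lipe were at nearly equal levels, with ratios of 1.08 and 0.943 in the standard and TELP N9 libraries. At day 7 Pnpla2 exceeded Lipe by 2.53-fold in the standard library and 2.07-fold in N9, and by 6.08-fold in T18.

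Mgll started lower, at 1.98 and 2.53 RPKM in standard and TELP N9 day 0. Its day 7 values were 86.5 in the standard library, 187 in N9, 189 in N9_ss and 29.3 in T18. Again no day 7 library overlapped day 0, and limma gave 5.31 ± 0.34 (adjusted p = 0.0185). Per length, Mgll made up 21.4% and 25.3% of the summed RPKM of the lipase genes at day 0 and 12.2% and 10.9% at day 7 in the standard and N9 libraries. Pnpla2 went from 40.8% and 36.3% to 62.9% and 60.1% of that sum. The order Pnpla2, Lipe, Mgll held in 3 of the 4 day 7 libraries, the standard one, N9 and N9_ss. In T18 Mgll stood above Lipe.

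The activator and the inhibitor of ATGL differed in how far they moved. Abhd5 was already at 15.8 and 13.8 RPKM in standard and TELP N9 day 0, above each of the lipase genes. It was at 84.7 in standard day 7, 133 in N9, 140 in N9_ss and 16.3 in T18. The ratio of day 7 to day 0 was 5.37 and 9.62, and T18 stood only slightly above day 0. Abhd5 missed the limma threshold at 2.76 ± 0.34 (adjusted p = 0.0503). G0s2 had the lowest level of the genes detected at day 0, 1.52 and 1.93 RPKM, and reached 214 in standard day 7, 619 in N9, 618 in N9_ss and 33.8 in T18. Its ratios, 140 and 320, were larger than those of any other of the 9 genes with a value above 0 at day 0, and limma gave 7.07 ± 0.41 (adjusted p = 0.0157).

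Set against each other, the levels of Pnpla2 and G0s2 kept a similar ratio through differentiation while that of Pnpla2 to Abhd5 did not. Pnpla2 exceeded G0s2 by 2.48-fold and 1.88-fold at day 0 and by 2.08-fold and 1.67-fold at day 7 in the standard and TELP N9 libraries. In T18 the ratio was 2.31. Pnpla2 was below Abhd5 at day 0, at ratios of 0.239 and 0.263, and above it at day 7, at 5.24 and 7.77. The ratio of G0s2 to Abhd5 went from 0.0964 to 2.52 with the standard method and from 0.14 to 4.66 with TELP N9. Such ratios within a library do not change when each library is scaled by a single factor, but quantile normalization can change them.

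G0s2 was also among the genes whose profile was most like that of Pnpla2. Likeness was the Euclidean distance between log2(RPKM + 1) profiles centred on each gene's mean over 5 libraries (N9_ss left out), among 11028 genes. Nearest to Pnpla2 were Agpat2 (distance 0.39), G0s2 (0.44) and Fam213a (0.73). Nearest to Lipe were Tusc5 (0.38), Pck1 (0.45) and Arxes1 (0.52). Nearest to Adrb3 were Nr1h3 (0.27), Mgll (0.31) and B3galt2 (0.33).

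The 250 bases upstream of the annotated start are shown for Pnpla2 and G0s2, whose profiles lay close together, and for Lipe, the lipase that acts next. They are RefSeq sequences of build GRCm38.p6, another build than the mm9 of the deposited table. Each is written 5′ to 3′ on the gene's strand, and capitals mark GGGCGG (the GC box) and TGACG (the start of the cAMP response element), searched on both strands. The windows are chr7:141454938-141455187 on the + strand for Pnpla2, chr1:193273189-193273438 on the - strand for G0s2 and chr7:25395988-25396237 on the - strand for the upstream one of the Lipe starts.
Pnpla2: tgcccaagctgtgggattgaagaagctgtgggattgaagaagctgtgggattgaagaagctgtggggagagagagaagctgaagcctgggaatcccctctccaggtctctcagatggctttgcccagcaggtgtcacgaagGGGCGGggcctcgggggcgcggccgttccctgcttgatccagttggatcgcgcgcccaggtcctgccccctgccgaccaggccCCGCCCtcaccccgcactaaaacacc
G0s2: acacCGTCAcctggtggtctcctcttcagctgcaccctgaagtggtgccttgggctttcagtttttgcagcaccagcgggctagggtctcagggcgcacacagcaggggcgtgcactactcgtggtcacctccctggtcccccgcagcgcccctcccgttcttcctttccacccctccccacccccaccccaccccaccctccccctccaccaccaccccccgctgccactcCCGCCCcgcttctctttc
Lipe: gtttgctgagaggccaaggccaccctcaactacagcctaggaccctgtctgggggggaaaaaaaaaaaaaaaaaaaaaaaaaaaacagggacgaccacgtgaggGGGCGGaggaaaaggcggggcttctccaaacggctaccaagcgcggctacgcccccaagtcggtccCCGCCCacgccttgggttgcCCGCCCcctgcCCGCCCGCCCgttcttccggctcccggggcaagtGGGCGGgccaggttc

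RefSeq held 10 such windows for 7 of the 9 genes, with more than 1 start for Mgll, Lipe and Prkar2b. The table does not say which start these cells used. The GC box was present in 7 of the 10 windows and in 32.7% of all 32851 windows. It occurred at 2 places upstream of Pnpla2, at -109 and -26 from the start, and at -18 upstream of G0s2. Upstream of the Lipe start shown it occurred at 6 places, and in the other Lipe window at none. TGACG was found in 3 of 10 windows, those of G0s2, Abhd5 and Adrb1, against 17.8% of all windows. Both motifs were chosen after the sequences had been seen. Of the motifs chosen earlier, the PPAR-RXR element AGGTCANAGGTCA, the C/EBP motif TTGCNNAA, the cAMP response element TGACGTCA and the TATA box TATAAA were in 0 of 10 windows. Over all windows they were present in 0.0335%, 9.56%, 1.55% and 12.4%. CCAAT was in 1 of 10, that of Adrb1, against 33.8%. The windows of these genes held 58.8% to 75.6% G and C, where the median of all windows was 52.4%.

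Adrb3 was above 0 in each day 7 library and in no day 0 library. It encodes the receptor typical of rodent fat. Both day 0 libraries list it at 0. Day 7 levels were 21.6 RPKM with the standard method, 47.7 in N9, 45.7 in N9_ss and 7.29 in T18. The groups did not overlap. If those values are counts of 0, 3 reads of a 2 kb transcript would be 0.116 RPKM at the standard and 0.0738 at the TELP N9 depth. No ratio to day 0 is given, since a listed 0 can be a failed estimate.

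Adrb1, the form best known from the heart, was near the limit of detection. It was listed at 0 at day 0 and was at 0.185 RPKM in standard day 7, 0.953 in N9, 0.91 in N9_ss and 0.275 in T18. In units of reads these values stood at 1.99, 4.00, 4.01 and 1 relative to T18, close to whole multiples, so the value of 1 or a few reads decides the level in T18.

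Prkar2b, the RII-beta regulatory subunit that predominates in fat, had the highest level of the 9 genes at day 0. Day 0 levels were 25.0 RPKM (standard) and 21.3 (TELP N9). Day 7 values were 102 in the standard library, 174 in N9, 174 in N9_ss and 18.9 in T18. T18 lay below both day 0 libraries, and against TELP N9 day 0 it differed by -0.16. Ratios of day 7 to day 0 were 4.09 (standard) and 8.18 (TELP N9). Prkar2b did not pass limma (2.48 ± 0.37, adjusted p = 0.0684).

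Within the regulatory subunit genes of protein kinase A the balance differed between days in each library, T18 included. Prkar1a, the widely expressed RI-alpha subunit, held 78.4% and 80.0% of their summed RPKM at day 0. Prkar2b then held 16.5% and 15.8%. At day 7 Prkar2b held 56.9% in the standard library, 68.7% in N9, 68.0% in N9_ss and 54.6% in T18. Prkar1a itself was at 119 and 108 RPKM at day 0 and at 67.3 and 67.9 at day 7 (standard and N9), differences of -0.81 and -0.66 that were not called. Of the catalytic subunit genes, Prkaca was at 47.9 and 46.1 RPKM at day 0 and at 91.5 and 183 at day 7, and Prkacb at 28.0 and 22.2 and at 15.7 and 11.7. Neither was called in both library types.

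Pde3b was at 4.13 and 3.62 RPKM in standard and TELP N9 day 0. It was at 35.8 in standard day 7, 86.1 in N9, 87.6 in N9_ss and 12.0 in T18, so each day 7 library lay above day 0. Ratios were 8.68 and 23.8. Limma gave 3.54 ± 0.43 with an adjusted p of 0.0495, and of 0.0688 without a mean-variance trend, so its call depends on that choice. Of 9 other cyclic nucleotide phosphodiesterase genes kept, 0 were called higher in both types (7.23% of all genes) and 2 were called lower (5.81%). These were Pde1a, a calcium-calmodulin dependent form (20.4 to 8.24 RPKM in the standard and 17.7 to 3.24 in the N9 libraries), and Pde8b (12.7 to 5.62 and 8.75 to 0.481). Neither passed limma (adjusted p = 0.105 and 0.136). Over 15 phosphodiesterase genes, Pde3b held 5.28% and 5.51% of the summed RPKM at day 0, and 46.5%, 80.6%, 80.7% and 57.8% in standard, N9, N9_ss and T18 day 7.

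**Figure D2:**
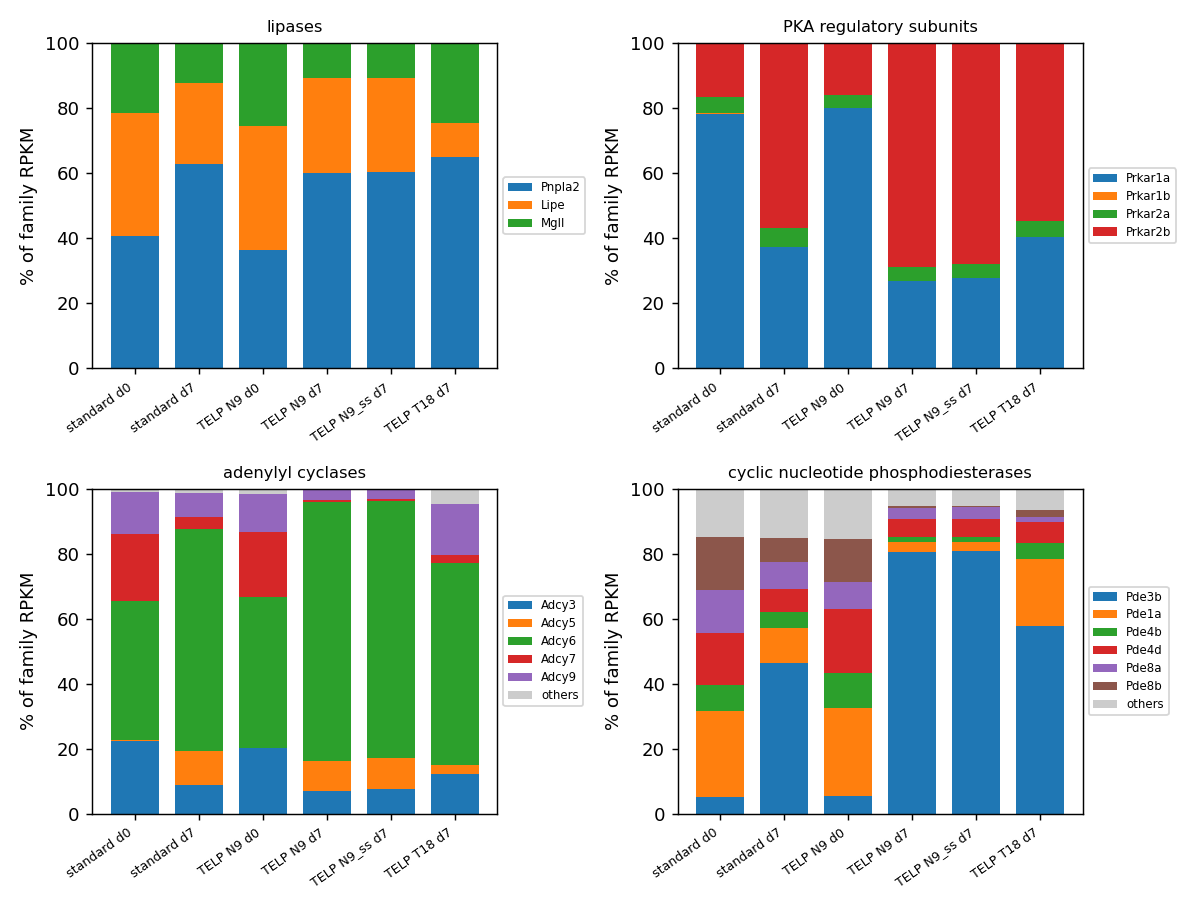
Share of each gene in the summed RPKM of its family in the 6 RNA libraries (percent, stacked bars that start at 0, 1 library per bar and no error bars). Pnpla2 takes 62.9% (standard) and 60.1% (N9) of the lipase RPKM at day 7 against 40.8% and 36.3% at day 0, and Prkar2b and Pde3b hold larger shares in each day 7 library than in either day 0 library.

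The order of the 9 genes by level also differed between the days. At day 0 Prkar2b and Abhd5 led in both library types, and Pnpla2, Lipe and Pde3b, at 3.49 to 4.13 RPKM, changed places between the types. At day 7 the order was Pnpla2, G0s2, Lipe in the standard, N9 and N9_ss libraries. Prkar2b stood above Mgll in the standard library and below it in N9. With 1 library per group, no spread is at hand to say which neighbours differ.

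**Figure D3:**
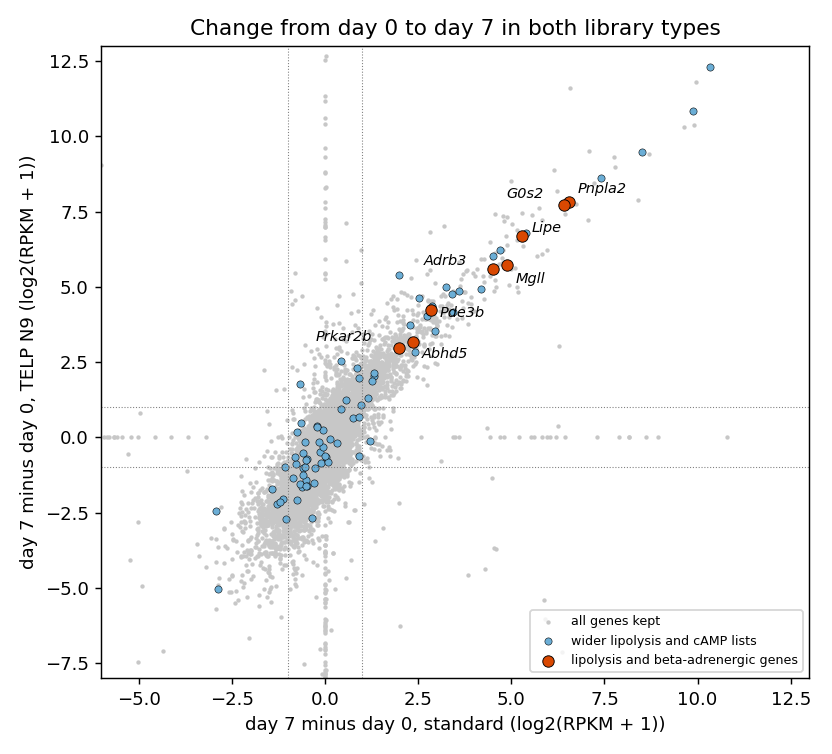
Difference of log2(RPKM + 1) from day 0 to day 7 in the standard (x axis) and TELP N9 (y axis) libraries, 1 point per gene over 11474 genes kept, with dotted lines at the calling threshold. The 8 lipolysis and beta-adrenergic genes (orange) lie at 1.99 to 6.54 on the x axis and 2.97 to 7.80 on the y axis, and genes of the wider lists (blue) spread on both sides of 0; 55 genes lie outside the plotted range.

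Around the 9 genes, 7 wider lists of droplet, cyclic AMP and antilipolytic genes held 99 genes, of which 75 were kept. Of these 23 were called higher and 7 lower in both library types, and limma passed 12 as higher and 1 as lower. Over all genes 7.23% were called higher and 5.81% lower, and limma passed 1.41% and 0.209%. The 7 lower calls of 75 are near the share over all genes. Adra2a, among the 7, was kept only through day 0 and could only be called lower. Of the 23 higher calls, 14 were of genes under 1 RPKM in both day 0 libraries, which were kept only through day 7 and could only be called higher, so these counts and their limma values are a description. They were 6 of the 11 droplet genes, 4 of 5 on the stimulatory side, 3 of 5 on the antilipolytic side and Fgf21. Over the 75 genes the median differences were -0.01 and -0.05 in the standard and TELP N9 libraries. Without a mean-variance trend limma passed 9 and 0.

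Partners of the lipases on the lipid droplet were called higher most often, 11 of 19 with 0 lower, against 7.23% higher over all genes. Limma passed 10, against 1.41% of all genes. Of the 11 called, 6 were kept only through day 7, Plin1 and Aqp7 among them, and could only be called higher. Plin1, the perilipin that holds ABHD5 at the droplet, went from 0.0838 to 183 RPKM in the standard and from 0.0533 to 411 in the N9 libraries. Pnpla2 stood 2.43-fold and 2.51-fold above Plin1 at day 7, and Lipe was near it, at ratios of 0.96 and 1.21. Ces1d, a carboxylesterase with triglyceride hydrolase activity, went from 0.827 to 46.0 and from 1.28 to 168 RPKM. Aqp7, the channel through which glycerol leaves the fat cell, went from 0.0367 to 42.6 and from 0.0786 to 118. Abhd6, Abhd12 and Daglb were among the 8 genes not called.

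On the stimulatory side, 5 of 11 genes kept were called higher and 1 lower, against 7.23% and 5.81% of all genes. Of the 5 higher calls, 4 (Adcy5, Tshr, Mc2r and Mc5r) were of genes kept only through day 7, which could only be called higher. Only the TSH receptor gene Tshr passed limma (adjusted p = 0.0458), and it did not without the mean-variance trend (0.0572). Tshr was listed at 0 in standard day 0 and at 9.72 RPKM in standard day 7, and went from 0.0107 to 26.2 in TELP N9. The melanocortin receptor genes Mc2r and Mc5r, whose products bind ACTH and melanocortins, were called higher as well, at 6.72 and 5.22 RPKM in standard day 7 and 20.7 and 17.8 in N9. Adenylyl cyclase genes moved in different directions, with Adcy6 going from 11.5 to 30.1 and from 12.2 to 53.1 RPKM and Adcy5 from 0.0429 to 4.59 and from 0.0182 to 6.28. Adcy7 was called lower, from 5.55 to 1.67 and from 5.25 to 0.348. Gnas, the stimulatory G protein alpha subunit, was at 686 and 678 RPKM at day 0 and 620 and 486 at day 7, and was not called.

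On the antilipolytic side, 5 of 12 genes kept were called higher and 2 lower, against 7.23% and 5.81% of all genes. Of the 5, Ffar2, Hcar1 and Hcar2 were kept only through day 7 and could only be called higher, so their values are a description. Ffar2 passed limma (adjusted p = 0.0267), as did 1.41% of all genes. Ffar2, a receptor for short-chain fatty acids, was listed at 0 in standard day 0 and reached 17.1 RPKM in standard day 7, and went from 0.121 to 33.2 in TELP N9. Hcar1 and Hcar2, receptors for lactate and for ketone bodies and niacin, reached 6.56 and 8.49 RPKM in standard day 7 and 17.6 and 30.9 in N9, with limma adjusted p of 0.0603 and 0.0554. Insr and Irs2 were called higher by 1.16 and 1.30 (standard) and 1.32 and 2.13 (N9). The neuropeptide Y receptor gene Npy1r was called lower, from 39.1 to 4.47 and from 38.3 to 0.194 RPKM. Adra2a, the alpha-2A adrenergic receptor that inhibits adenylyl cyclase, was called lower as well, from 3.17 to 0.568 and from 3.40 to 0.353. It was kept only through day 0 and could only be called lower, so its values too are a description.

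Among the 11 genes kept of the protein kinase A list, Akap1, which anchors the kinase at mitochondria, was called higher (1.27 and 1.87). Akap12 was called lower (-1.14 and -2.04), and 0 of the 11 passed limma. The 1 higher and 1 lower of 11 are near the 7.23% and 5.81% over all genes. Of 6 receptor kinase, arrestin and Rgs genes, 0 were called in both types, which is also near those shares, and 0 passed limma. Among 7 cyclic AMP response genes 1, Fgf21, was called higher and 1, Nr4a1, lower, against 7.23% and 5.81% of all genes. Fgf21 was kept only through day 7, so its direction was fixed by the filter, and it did not pass limma (adjusted p = 0.0868). Nr4a1, an early target of cyclic AMP signalling, went from 17.3 to 1.40 and from 23.9 to 3.52 RPKM (limma adjusted p = 0.0472, and 0.0661 without the trend). Ucp1, the uncoupling protein of brown fat, stood under the filter, listed at 0 in the standard libraries of either day and at 0.882 RPKM in N9 of day 7.

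**Figure D4:**
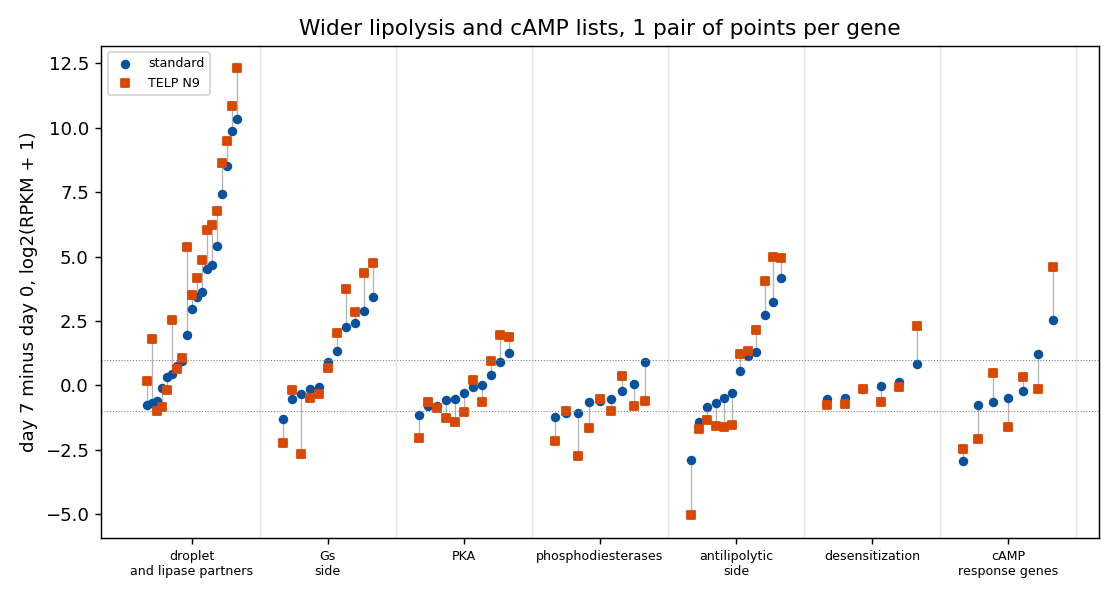
Difference of log2(RPKM + 1) from day 0 to day 7 for the 75 genes kept of the wider lists, with 1 circle (standard) and 1 square (TELP N9) per gene, ordered within each list by the standard value; dotted lines mark the calling threshold. Droplet and lipase partners reach the highest values, and the phosphodiesterase genes have medians of -0.60 (standard) and -0.97 (TELP N9).

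Between the library methods these genes lay close together at day 0 and further apart at day 7. At day 0, 7 of the 9 genes were kept, and TELP N9 minus standard lay between -0.23 and 0.24 for them, with 0 called. Over all genes 2.2% were called higher and 0.718% lower. At day 7, 8 of 8 lay higher in N9, by 0.64 (Abhd5) to 1.53 (G0s2), and 6 were called, where 7.51% of all genes were called higher and 17% lower. Abhd5 and Prkar2b (0.76) were not called. The median over all genes was -0.23, and relative to it the 8 genes lay 0.88 to 1.76 higher. Scaling decides the call. With libraries set to equal totals 0 of 8 were called and Abhd5 (-0.13) and Prkar2b (-0.01) fell below 0, while median of ratios gave 7 called. Quantile normalization gave 4 called, and Pnpla2 (0.48) and Mgll (0.81) were then not among them.

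Markers moved between these libraries too. At day 7 summed RPKM of the adipocyte markers was 13160 in the standard and 29900 in the N9 library. Most of it was Fabp4, at 10253 and 24892 RPKM, and the sum over all genes was 341600 and 584700. Precursor markers summed to 157 and 41.01. Of the 6 adipocyte markers 3 were called higher and 0 lower, and of 4 precursor markers kept 4 were called lower. At day 0 the sums were 37.1 and 27.9 for adipocyte and 245 and 278 for precursor markers. Macrophage markers summed to 1.90 and 4.70 RPKM at day 7, almost all of it Cd68, with Emr1 listed at 0 in both. The 4 endothelial markers summed to 1.40 and 0, and the muscle, osteoblast and chondrocyte markers to 5.20, 6.37 and 19.0 in the standard and 7.39, 2.50 and 5.35 in the N9 library. Their part in the difference between library methods was not tested. With 1 library per group, an interaction of day with library type could not be tested.

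In T18 against N9, 8 of 8 genes were called lower, as were 83.4% of all 9753 genes (0.841% were called higher), so the count says nothing particular about these genes. The median over all genes was -1.77. Relative to it, Lipe stood lowest at -3.41, followed by G0s2 (-2.39) and Pnpla2 (-1.94), and the other 5 lay between -0.79 (Adrb3) and -1.37 (Prkar2b). Under median of ratios these leading 3, Lipe at -3.03, G0s2 at -1.96 and Pnpla2 at -1.49, were the ones still called lower. Between N9_ss and N9 the 8 genes differed by -0.06 to 0.07 and 0 were called, against 0.0194% higher and 0.00968% lower over all genes.

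**Figure D5:**
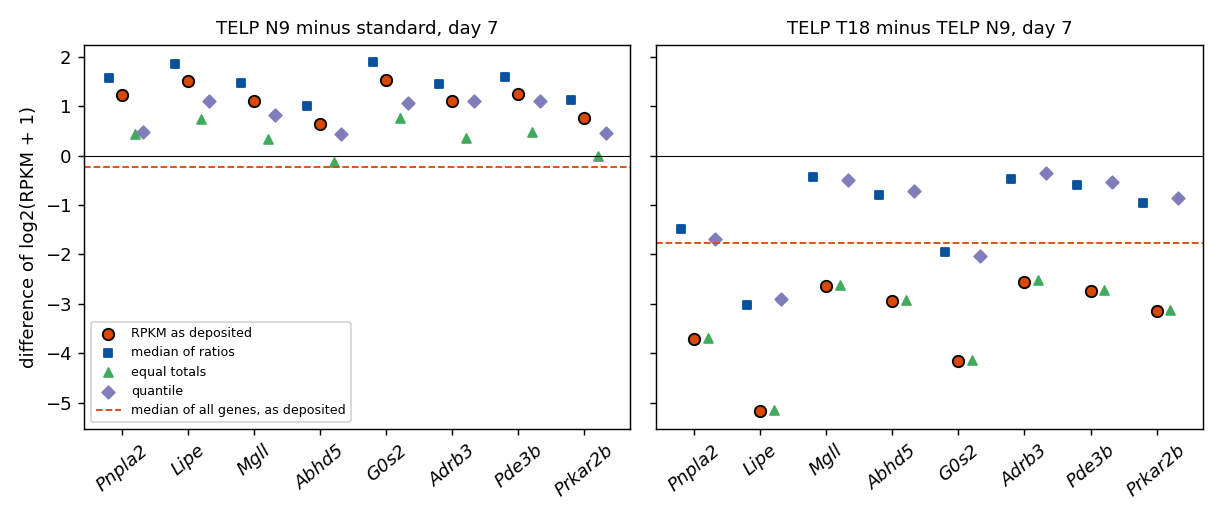
Difference of log2(RPKM + 1) at day 7 for the 8 genes kept, TELP N9 minus standard (left) and TELP T18 minus TELP N9 (right), with RPKM as deposited (orange) and under other scalings; the dashed line is the median of all genes as deposited. On the left the values as deposited run from 0.64 to 1.53 and drop to -0.13 to 0.76 with equal totals, and on the right Lipe is lowest under each scaling.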

How the data were processed

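The 6 RNA libraries of the series were used, 1 per group. The 17 other libraries, chromatin immunoprecipitation and input libraries among them, were left aside. RPKM values of 24029 genes are as the authors deposited them. Per the submitters' processing notes, the mm9 build was used and the tools included Bowtie2, TopHat and Cufflinks. Their versions and settings, and any use of strand, are not stated in those notes, so reads of overlapping genes cannot be told apart. Of the symbols 22857 (95.1%) matched current mouse names. The 9 genes and the wider lists were chosen with earlier results of these data known.

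All genes were compared as log2(RPKM + 1), with a filter at a mean of 1 RPKM and a call at 1 log2 unit. Named genes were the 9, members of the wider and marker lists and, for Pnpla2, Lipe and Adrb3, the 3 nearest profiles. Limma 3.58.1 (R 4.3.3) was fitted to 4 libraries with a mean-variance trend. The fit and the calls were run on simulated data in which both library types had the same change between days. That setting differs from these libraries, so it does not test the spread that limma uses here. Relative depth came from the steps of low RPKM values, and absolute depth from genes with an annotated length under 4 kb after deducting 200 bp. It rests on 24 to 63 genes per library and is approximate. Alternatives were a pseudocount of 0.1, no filter or one at 5 RPKM, scaling by median of ratios, equal totals or quantiles, and N9_ss or T18 in place of N9. Limma without the trend was added after seeing the data. Python 3.11.15 was used.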

Additional observations from a re-analysis of the deposited data

Results flagged for a closer look

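Some changes from day 0 to day 7 pointed opposite ways in the standard and TELP N9 libraries and lay at least 1 log2 unit apart. This held for 4 of the 75 wider-list genes kept and 0 of the 8 lipolysis and beta-adrenergic genes. The share over all genes was not counted, so these counts are a description only. These differences were not tested, since each group holds 1 library. Hilpda, whose product inhibits ATGL as G0S2 does, differed by -0.67 (standard) and 1.78 (TELP N9). Pde3a, the close relative of Pde3b, differed by 0.90 and -0.61. Ppargc1a, a coactivator induced by cyclic AMP in fat, differed by 1.21 and -0.12. The clock gene Per1 differed by -0.65 and 0.47.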

How the results depend on the processing

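The day 7 calls of the 8 genes held by size in both library types under a pseudocount of 0.1, no filter, a filter at 5 RPKM and the other scalings (8 of 8 each), and with N9_ss in place of N9. With T18 in place of N9, 6 of 8 were called, Abhd5 stood at 0.23 and Prkar2b at -0.16, the 1 reversed direction. Limma passed 6 of 8, and 5 without a mean-variance trend, where Pde3b was lost. For TELP N9 minus standard at day 7, 6 were called higher as deposited, 7 under median of ratios, 4 under quantile normalization and 0 with equal totals. With T18 in place of N9, 0 were higher and 8 lower. For T18 minus N9, 8 were lower as deposited and 3 under median of ratios and under quantile normalization. In the wider lists 23 genes were called higher and 7 lower. With T18 in place of N9 13 were higher, limma passed 12 higher and 1 lower, and without the trend 9 higher and 0 lower. The cause of these shifts was not tested. Adrb1 rests on few reads, and the part of depth in this was not tested. No paired analysis was possible because each RNA group holds 1 library and the groups share fewer than 2 replicate numbers. Library type, which links day 0 to day 7, is a term of the limma fit. No library could be left out of a group.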

Other observations

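Rgs2, a regulator of G protein signalling, was higher in T18 (69.4 RPKM) than in N9 (23.6), where 0.841% of all genes were called higher. It stood at 3.24 and 4.01 RPKM in the day 0 libraries and at 6.63 in standard day 7. Npr3, the clearance receptor for natriuretic peptides, was at 15.0 and 15.5 RPKM at day 0 and at 11.6 in standard day 7 but 1.59 in N9. Rgs2 and Npr3 were chosen after their values were seen.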
